A study of Homo sapiens with 16 samples.

Results

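Genes of the serum response and the actin cytoskeleton were followed after transfection with a guide RNA against YES1, a Src-family tyrosine kinase gene. The cells were MDA-MB-231 and SUM159PT, both long-established human triple-negative breast cancer lines. The set holds 10 genes of the 58735 in the count tables: SRF, ACTB, ACTG1, CNN2, CNN3, TAGLN, TPM1, MYL9, FHL1 and CORO2B, each matched by gene name in both tables. CORO2B and FHL1 were selected on their fall in MDA-MB-231, so their values in that contrast are given as a description with no test. The other 8 are named for their function, although the set was drawn up with results of these libraries in view. The 4 groups were MDA-MB-231 with a non-targeting guide (sgNTS), MDA-MB-231 with the YES1 guide (sgYES1), SUM159PT with sgNTS and SUM159PT with sgYES1. The labels give every group a wild-type genotype, delivery of the guide by Lipofectamine2000, and collection 48 h later. The sources used here give neither the protein that acts with the guide nor the share of cells that took it up. Each group had 4 replicates, 16 libraries in all, which the submitters call technical, so p-values measure only the spread between these samples.

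Serum response factor, SRF, is a transcription factor that binds a DNA element known as the CArG box. It works with myocardin-related cofactors (MRTFA, MRTFB), which monomeric actin holds back until filaments form, and with ternary complex factors (ELK1, ELK3, ELK4), which respond to ERK signaling. Its textbook targets are immediate-early genes such as FOS and EGR1 and many genes of actin, its binding proteins and the contractile apparatus, and SRF is among its own targets. In breast cancer cells these genes serve adhesion, contraction and migration.

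Promoter windows are shown for the members whose window holds the element that SRF reads, so that the letters can be read beside the values that follow. Of the 10 members, 7 had entries in the RefSeq promoter table (GRCh38.p14), with 24 windows of 250 bases before to 50 bases after a start site. A CArG box lay in 4 of those windows, in SRF, ACTG1, CNN2 and FHL1. FHL1 had many windows, where the median gene of that table had 1, and only the window printed below held a match. The other window of SRF held none. A gene with more windows has more chances of a match. Over the whole table, 454 of 35116 windows (1.29%) and 438 of 27305 genes (1.6%) held one. ACTB, TAGLN and MYL9 were not in the table. Capitals mark the match, which reads as a CArG box on both strands.
SRF, chr6:43171019-43171318, plus strand: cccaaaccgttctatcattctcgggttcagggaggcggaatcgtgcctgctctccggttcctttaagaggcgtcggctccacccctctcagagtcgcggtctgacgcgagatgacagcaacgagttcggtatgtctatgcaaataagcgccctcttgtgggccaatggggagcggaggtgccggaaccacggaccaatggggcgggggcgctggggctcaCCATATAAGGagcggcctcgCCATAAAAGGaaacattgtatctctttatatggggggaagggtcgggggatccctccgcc
ACTG1, chr17:81512750-81513049, minus strand: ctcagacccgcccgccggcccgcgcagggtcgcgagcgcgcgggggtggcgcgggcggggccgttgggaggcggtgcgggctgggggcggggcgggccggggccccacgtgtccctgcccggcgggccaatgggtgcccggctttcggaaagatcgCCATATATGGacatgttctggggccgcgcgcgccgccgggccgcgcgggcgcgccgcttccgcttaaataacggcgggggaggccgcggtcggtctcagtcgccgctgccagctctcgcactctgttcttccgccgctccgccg
CNN2, chr19:1026358-1026657, plus strand: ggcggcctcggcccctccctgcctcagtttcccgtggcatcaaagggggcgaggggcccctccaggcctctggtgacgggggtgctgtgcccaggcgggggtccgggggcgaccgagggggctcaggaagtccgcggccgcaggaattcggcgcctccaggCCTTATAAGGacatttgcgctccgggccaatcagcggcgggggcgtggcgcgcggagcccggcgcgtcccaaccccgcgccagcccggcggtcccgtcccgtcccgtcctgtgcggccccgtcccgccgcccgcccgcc
FHL1, chrX:136196797-136197096, plus strand: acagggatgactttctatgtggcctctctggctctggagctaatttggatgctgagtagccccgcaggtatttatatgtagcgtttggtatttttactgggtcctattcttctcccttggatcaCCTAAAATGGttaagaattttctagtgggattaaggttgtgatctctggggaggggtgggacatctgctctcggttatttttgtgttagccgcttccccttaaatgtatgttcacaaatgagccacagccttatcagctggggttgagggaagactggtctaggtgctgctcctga
SRF held a pair of matches, beginning 30 and 10 bases before its start site. The match of ACTG1 began 94 bases, that of CNN2 89 bases and that of FHL1 126 bases before the start. The windows of CNN3, TPM1 and CORO2B held none. CNN3 and CORO2B are shown beside them because they had 2 of the 3 lowest fold changes among the members in MDA-MB-231.
CNN3, chr1:94927061-94927360, minus strand: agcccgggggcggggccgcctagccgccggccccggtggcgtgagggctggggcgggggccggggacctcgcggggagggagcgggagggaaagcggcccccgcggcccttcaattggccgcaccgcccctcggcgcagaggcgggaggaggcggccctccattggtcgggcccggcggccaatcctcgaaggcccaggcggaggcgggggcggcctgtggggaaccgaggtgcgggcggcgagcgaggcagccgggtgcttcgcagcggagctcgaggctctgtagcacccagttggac
CORO2B, chr15:68578743-68579042, plus strand: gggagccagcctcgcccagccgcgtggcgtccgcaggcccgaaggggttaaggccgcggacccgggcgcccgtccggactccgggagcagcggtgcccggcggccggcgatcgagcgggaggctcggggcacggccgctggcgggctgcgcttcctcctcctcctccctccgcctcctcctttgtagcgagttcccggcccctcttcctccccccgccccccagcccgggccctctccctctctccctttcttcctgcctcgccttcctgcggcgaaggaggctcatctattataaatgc
A match is a description of these letters, and neither a match nor its absence in this window says whether SRF binds.

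Gene counts per library summed to between 17156454 and 25124164 in MDA-MB-231 and to between 14352042 and 20884267 in SUM159PT. YES1 fell by 1.34 (MDA-MB-231) and by 1.24 (SUM159PT) on the log2 scale (adjusted p = 2.76e-11 and 1.65e-13, edgeR's quasi-likelihood test). Group means of ESR1 were at most 0.259 CPM and PGR had no counts, while ERBB2 averaged 109 and 108 CPM in the sgNTS groups and the epithelial marker CDH1 at most 0.195 CPM in any group. Library 4 of MDA-MB-231 sgNTS stood apart from its group in the pairwise count comparison, and without it the count of members called in that line was also 6. Levels are given as CPM, counts scaled to the size of each library, with TMM factors set within a line. A gene is called where edgeR's quasi-likelihood test gave a Benjamini-Hochberg adjusted p under 0.05 over all genes tested in that comparison.

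In MDA-MB-231 the sgYES1 libraries had lower levels of both cytoplasmic actins, both calponins, transgelin and a myosin light chain, while SRF itself and TPM1 were not called. Of the 8 members with a test, 6 were called lower and none higher by edgeR, and none was higher by DESeq2 or at an unadjusted p under 0.05. Over all 15427 genes tested in the line, 22.1% were called lower and 20.8% higher. The median log2 fold change of the 8 was -0.20, beside 0.00896 over all genes. Guide groups did not overlap for 4 of the 8, beside 39.2% of all genes, so this second count is near the background. In bulk RNA, fewer cells with a transcript and less of it per cell cannot be told apart. Of 6 tested markers on the list for the line's identity, 5 were called lower with TMM and 3 with library totals. The list mixes receptors, epithelial genes and VIM, so this count has no single meaning. The summed level of its 11 genes ran from 2621 to 2795 CPM with sgNTS and from 2198 to 2290 CPM with sgYES1. Among them the log2 fold change was -0.30 for KRT8, -0.36 for KRT18, -0.32 for VIM, -0.30 for EPCAM and -0.13 for ERBB2. EGFR, at 0.04, was not called. Their part in the members' values was not tested.

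**Figure D1:**
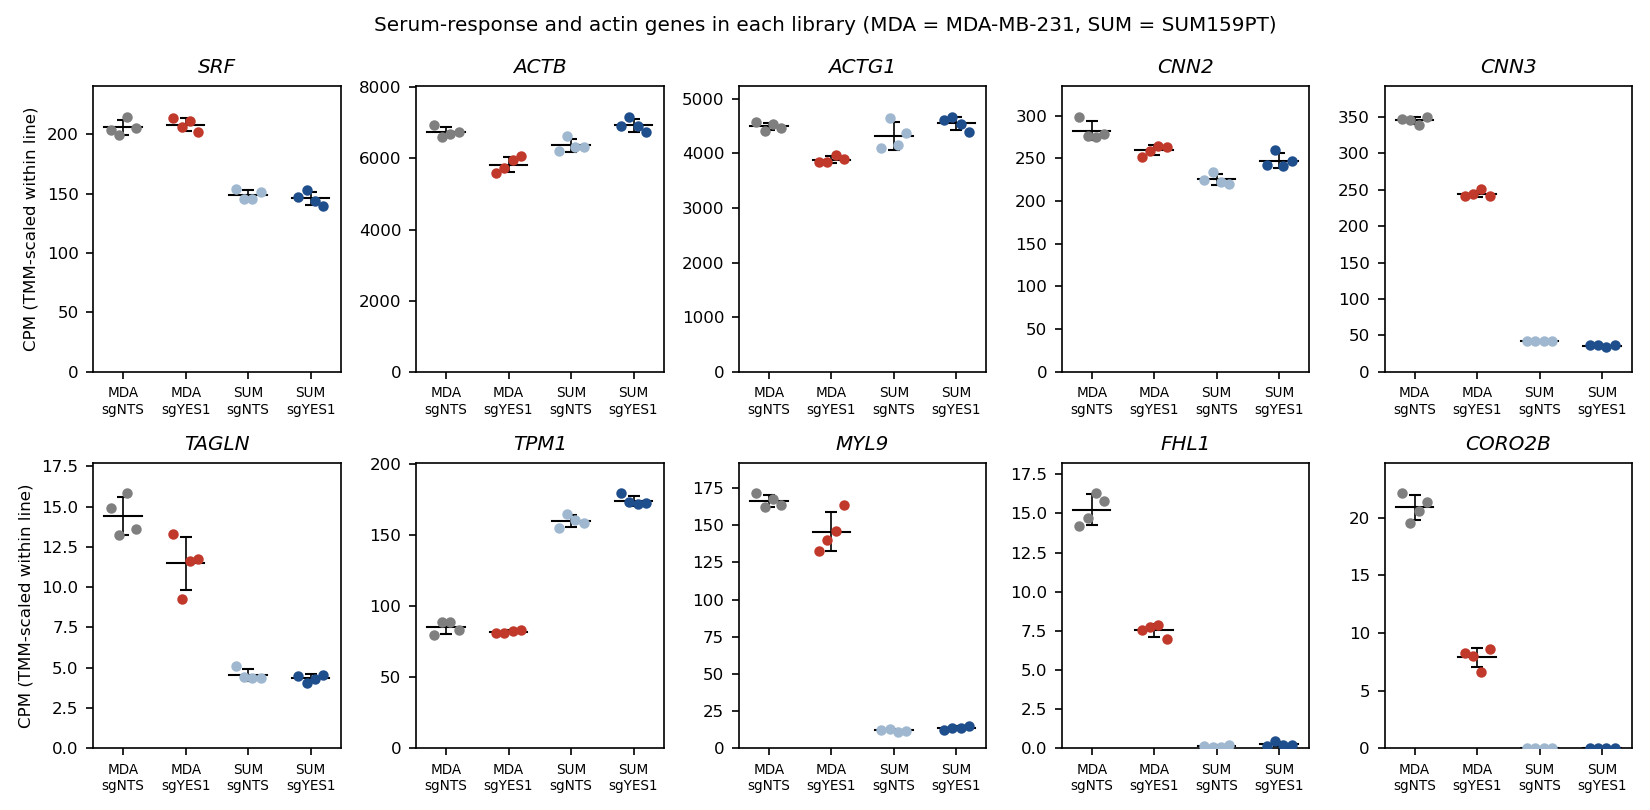
CPM of each member in each of the 16 libraries, on a linear axis from 0; points are libraries, bars the mean and SD of 4. In MDA-MB-231, sgYES1 points lie below all sgNTS points for ACTB, ACTG1, CNN2, CNN3, FHL1 and CORO2B, and in SUM159PT they lie above for ACTB, CNN2 and TPM1 and below for CNN3.

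SRF (chr6:43171299-43181507, hg38) had 204, 199, 215 and 205 CPM in sgNTS libraries 1 to 4 of MDA-MB-231 and 214, 206, 211 and 202 CPM in sgYES1 libraries. The groups overlapped throughout. Its log2 fold change was 0.02 with a 95% interval of -0.06 to 0.09 (adjusted p = 0.751, edgeR). In SUM159PT it had 154, 145, 145 and 151 CPM with sgNTS and 147, 153, 144 and 139.9 CPM with sgYES1, again overlapping. There the log2 fold change was -0.03 with an interval of -0.12 to 0.06 (adjusted p = 0.631, edgeR). The level of the SRF transcript thus differed between guides by no more than the spread of libraries in either line, which says nothing of the activity of the protein.

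ACTB (chr7:5527147-5563784) and ACTG1 (chr17:81509971-81523847) encode beta- and gamma-actin, the filament subunits of non-muscle cells. ACTB stood at 6943, 6612, 6693 and 6746 CPM in the sgNTS libraries of MDA-MB-231 and at 5588, 5720.3, 5943 and 6057 CPM in the sgYES1 libraries. Every sgYES1 library was below every sgNTS library, and the log2 fold change was -0.21 with an SE of 0.03 (adjusted p = 0.000169, edgeR). ACTG1 stood at 4566, 4412, 4530.5 and 4470.1 CPM with sgNTS and at 3844, 3832, 3975 and 3895 CPM with sgYES1. Its groups were as clearly apart, with a log2 fold change of -0.21 and an SE of 0.03 (adjusted p = 6.21e-05, edgeR).

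In SUM159PT the actins did not fall. ACTB had 6196, 6621, 6318 and 6335 CPM with sgNTS and 6913, 7176, 6915 and 6739 CPM with sgYES1. All sgYES1 libraries were above all sgNTS libraries, a log2 fold change of 0.12 (SE 0.03, adjusted p = 0.0029, edgeR). ACTG1 had 4090.1, 4650.4, 4153 and 4376 CPM with sgNTS and 4605, 4672, 4528 and 4399 CPM with sgYES1. Library 2 of sgNTS lay among the sgYES1 libraries, and the log2 fold change of 0.08, with an interval of -0.000910 to 0.15, was not called (adjusted p = 0.109, edgeR). Without that library the adjusted p was 0.0108, without library 4 of sgYES1 it was 0.0465, and with library totals in place of TMM it was 0.029. Pseudogenes named for ACTB summed to at most 2.53 CPM and those named for ACTG1 to at most 2.52 CPM in any library, although the sources used here do not say how reads with several matches were counted.

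The remaining actin isoforms, those of smooth, cardiac and skeletal muscle, were scarce. ACTA2 averaged 2.35 and 1.90 CPM in MDA-MB-231 and 1.61 and 1.65 CPM in SUM159PT (sgNTS, then sgYES1), and was called in neither line. ACTA1, ACTC1 and ACTG2 stayed under 1 CPM on average in all 4 groups and were not tested.

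CNN3 (chr1:94896949-94927278), an acidic calponin that binds actin filaments in non-muscle cells, had the lowest fold change of the 8 tested members in MDA-MB-231. Its sgNTS libraries held 346, 345, 339 and 350.3 CPM and its sgYES1 libraries 241, 244, 251 and 241 CPM. The groups were far apart relative to their SDs of 4.85 and 4.64, and the level fell by 0.50 on the log2 scale (SE 0.03, adjusted p = 2.76e-08, edgeR). CNN3 was also the only one of the 8 that was called lower in SUM159PT. There it had 42.8, 42.3, 41.6 and 42.1 CPM with sgNTS and 36.4, 36.5, 33.8 and 37.1 CPM with sgYES1, with no overlap. The log2 fold change in SUM159PT was -0.23 (SE 0.06, adjusted p = 0.00241, edgeR).

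CNN2 (chr19:1026581-1039068), the calponin of many non-muscle cells, moved in opposite directions in the lines. In MDA-MB-231 it had 299, 277, 275 and 279 CPM with sgNTS and 252, 259, 265 and 263 CPM with sgYES1. The groups did not overlap, and the log2 fold change was -0.12 (SE 0.04, adjusted p = 0.014, edgeR). This call was lost when library totals were the only scaling (-0.08, adjusted p = 0.0942). In SUM159PT it had 224, 234, 223 and 220.3 CPM with sgNTS and 242, 259.8, 241 and 246 CPM with sgYES1. Here all sgYES1 libraries were higher, with a log2 fold change of 0.13 (SE 0.04, adjusted p = 0.0113, edgeR). CNN1, the smooth-muscle calponin, stayed under 1 CPM on average in every group and was not tested.

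TAGLN (chr11:117199321-117204782) encodes transgelin, also called SM22, which binds actin and marks smooth muscle and activated fibroblasts. In MDA-MB-231 it had 14.9, 13.3, 15.8 and 13.6 CPM with sgNTS and 13.3, 9.29, 11.6 and 11.8 CPM with sgYES1. The groups overlapped only because library 1 of sgYES1 (13.295 CPM) was just above library 2 of sgNTS (13.261 CPM). The log2 fold change was -0.32 (SE 0.10, adjusted p = 0.0174, edgeR). Without sgNTS library 3 the adjusted p was 0.0531. In SUM159PT it had 5.12, 4.44, 4.37 and 4.36 CPM with sgNTS and 4.49, 4.09, 4.32 and 4.58 CPM with sgYES1. These groups overlapped, and the log2 fold change of -0.06, with an interval of -0.34 to 0.22, was not called (adjusted p = 0.755, edgeR).

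The 3′ end of TAGLN overlaps PCSK7, a proprotein convertase gene on the opposite strand, and whether counting used strand is not settled. PCSK7 had 28.7 CPM in MDA-MB-231 and 24.0 CPM in SUM159PT with sgNTS, above TAGLN in both lines. It was called higher with sgYES1 in both, at 0.30 and 0.18 on the log2 scale, so the values of TAGLN are uncertain. The relative TAGLN2 had 672 CPM with sgNTS and 747 CPM with sgYES1 in MDA-MB-231 and was called higher there (log2 fold change 0.15, adjusted p = 0.00734, edgeR). In SUM159PT its log2 fold change of 0.06 was not called (adjusted p = 0.163, edgeR), although with library totals it was (0.08, adjusted p = 0.0418).

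TPM1 (chr15:63042632-63071915) encodes a tropomyosin, which winds along actin filaments and sets which other proteins reach them. In MDA-MB-231 it had 79.8, 89.3, 89.2 and 83.1 CPM with sgNTS and 81.6, 80.9, 82.8 and 83.5 CPM with sgYES1. The groups overlapped and TPM1 was not called, with an interval of -0.14 to 0.04 on the log2 scale (adjusted p = 0.362, edgeR). In SUM159PT it had 155, 165, 161 and 159 CPM with sgNTS and 179.8, 173, 172 and 173 CPM with sgYES1. All sgYES1 libraries were higher, a log2 fold change of 0.12 (SE 0.04, adjusted p = 0.0183, edgeR). The call was lost with no filter on low counts (adjusted p = 0.071) and without sgNTS library 1 (0.0673) or 4 (0.0577).

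The other tropomyosin genes did not move as one. In MDA-MB-231, TPM3 and TPM4 were called lower (log2 fold changes of -0.21 and -0.11) and TPM2 higher (0.42). TPM2 averaged 37.8 CPM with an SD of 8.68 in the sgNTS libraries of that line and 371 CPM in those of SUM159PT. In SUM159PT, TPM3 was called higher (0.12), TPM4 lower (-0.21) and TPM2 not called (0.06). Several of these calls were unsettled. In MDA-MB-231 that of TPM2 was lost with DESeq2 (adjusted p = 0.0513) and that of TPM4 with library totals (-0.06, 0.123), and the value of TPM2 was 0.27 without sgNTS library 4. In SUM159PT that of TPM3 was lost without sgNTS library 1 (0.0589) or 3 (0.0519). Tropomyosin pseudogenes summed to between 8.10 and 14.7 CPM in a library.

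MYL9 (chr20:36541484-36551447) encodes a regulatory light chain of myosin II, whose phosphorylation turns on contraction. In MDA-MB-231 it had 172, 162, 168 and 164 CPM with sgNTS and 133, 140.0, 146 and 164 CPM with sgYES1. Library 4 of sgYES1 lay within the sgNTS range while the other 3 lay below it, and the log2 fold change was -0.19 (SE 0.05, adjusted p = 0.00991, edgeR). In SUM159PT it had 12.4, 12.8, 11.3 and 11.9 CPM with sgNTS and 12.2, 13.4, 13.5 and 15.04 CPM with sgYES1. There the groups overlapped and the log2 fold change of 0.16, with an interval of -0.03 to 0.35, was not called (adjusted p = 0.162, edgeR). DLGAP4-AS1, an antisense gene that overlaps MYL9, averaged 1.04 CPM in MDA-MB-231 and 0.134 CPM in SUM159PT with sgNTS.

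FHL1 (chrX:136146702-136211359) encodes a LIM-domain protein of muscle and other cells that binds cytoskeletal and signaling partners. In MDA-MB-231 it had 14.2, 14.7, 16.3 and 15.8 CPM with sgNTS and 7.58, 7.73, 7.88 and 6.97 CPM with sgYES1. All sgYES1 libraries were below all sgNTS libraries, and its log2 fold change of -1.02 (SE 0.08) was one of the values it was selected on. In SUM159PT it was close to the limit of detection, with 9 counts over the 4 sgNTS libraries and 19 over the 4 sgYES1 libraries. It did not pass the filter on low counts there.

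CORO2B (chr15:68578969-68727806) encodes a coronin, a family of proteins that bind actin filaments and the Arp2/3 complex. In MDA-MB-231 it had 22.1, 19.6, 20.5 and 21.4 CPM with sgNTS and 8.26, 8.02, 6.66 and 8.58 CPM with sgYES1. The groups were wide apart, and the log2 fold change of -1.41 (SE 0.08), the lowest of the 10 members, was a value it was selected on. In SUM159PT no count fell on CORO2B in any of 8 libraries. Against a floor of 3 counts over the group, the level with sgNTS was at least 466-fold higher in MDA-MB-231 than in SUM159PT, and with sgYES1 at least 194-fold higher. An effect of the guide on CORO2B could therefore not be measured in SUM159PT.

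The relatives of FHL1 and CORO2B had smaller fold changes. FHL2, an SRF target that also binds SRF, was called lower in MDA-MB-231 (-0.30 on the log2 scale) and not called in SUM159PT (0.04). FHL3 was called higher in MDA-MB-231 (0.33) and lower in SUM159PT (-0.27), and FHL5 had no counts. Of the other 6 coronins, in MDA-MB-231, CORO2A was called lower (-0.32), and CORO1A, CORO1C and CORO7 were not called, although CORO1C was called lower without sgNTS library 1 (adjusted p = 0.0469). CORO1B (0.10, adjusted p = 0.0415, edgeR) and CORO6 (0.52, 0.0487) were just past the threshold on the higher side. With no filter on low counts their adjusted p-values were 0.275 and 0.0682, and each also lost its call in most of the fits that left out 1 library. In SUM159PT no coronin was called with TMM on all 8 libraries or by DESeq2, and 2 of 6 were lower there at an unadjusted p under 0.05. Leaving out single libraries there brought calls of CORO7 and CORO1A as lower (0.0256 and 0.0449 without sgNTS library 3) and of CORO6 as higher (0.0476 without sgNTS library 2). Without sgYES1 library 1, CORO7 was called lower (0.0477) and CORO6 higher (0.0116).

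**Figure D2:**
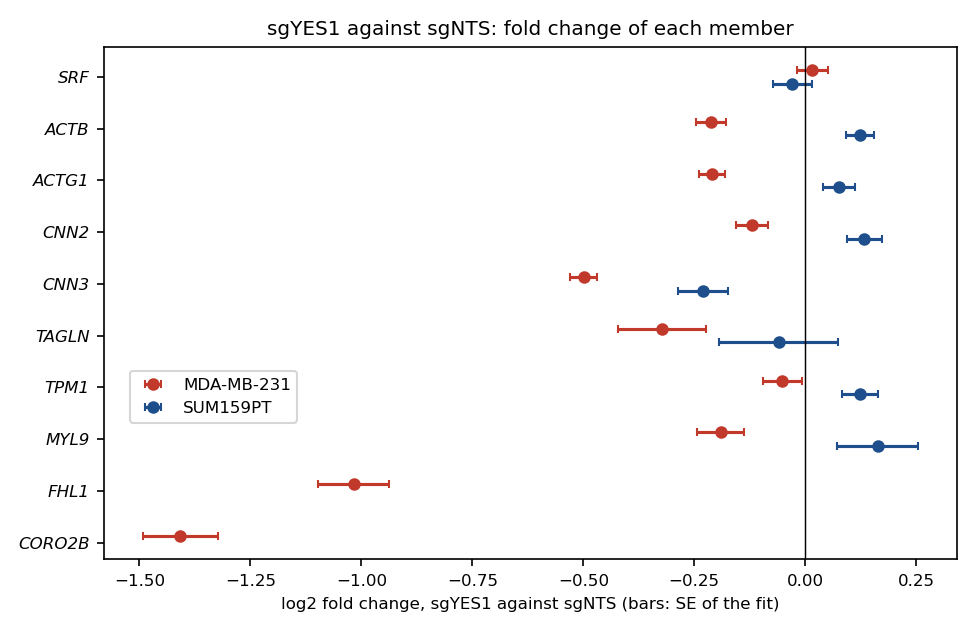
Log2 fold change of sgYES1 against sgNTS for each member (horizontal axis), with the SE of the fit as bars; red is MDA-MB-231, blue SUM159PT. ACTB and CNN2 lie to the left of 0 in MDA-MB-231 and to the right in SUM159PT, CNN3 lies to the left in both, and FHL1 and CORO2B have no point in SUM159PT, where they were not tested.

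In SUM159PT as a whole, 4 of the 8 members were called: ACTB, CNN2 and TPM1 higher and CNN3 lower. Over all 14479 genes tested in that line, 19.6% were called higher and 19.7% lower. The median log2 fold change of the 8 was 0.10, beside -0.0066 over all genes. Guide groups did not overlap for 4 of the 8, 3 with sgYES1 above and 1 with it below, beside 35.3% of all genes, again a count not far from the background. Of 6 identity markers tested in this line, 3 were called lower and 2 higher, with sums of 2803 to 2884 CPM with sgNTS and 2666 to 2812 CPM with sgYES1. VIM (-0.21), EGFR (-0.35) and ERBB2 (-0.18) were lower, KRT8 (0.27) and KRT18 (0.11) higher, and KRT5 (0.63) was not called.

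The effect of the guide differed between the lines for most of the 8 members. The interaction term of guide and line, fitted to the 16 libraries together, was called for 6 of them, beside 24.5% of all 16640 genes tested. In each of the 6 the fold change in SUM159PT was above that in MDA-MB-231. The difference on the log2 scale was 0.34 for MYL9, 0.32 for ACTB, 0.27 for ACTG1, 0.26 for CNN3, 0.24 for CNN2 and 0.16 for TPM1. Adjusted p-values of edgeR's test ran from 1.96e-05 for ACTB to 0.0404 for TPM1. CNN3 is the case of the 6 that fell in both lines, by less in SUM159PT.

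The difference for TPM1 is the least settled of the 6. It was lost with library totals (adjusted p = 0.0506), with no filter on low counts (0.0781), and without library 2 of MDA-MB-231 sgNTS (0.0779) or library 1 (0.0637) or 3 (0.0601) of MDA-MB-231 sgYES1. The difference was not called for SRF (-0.06, interval -0.17 to 0.06, adjusted p = 0.5) or for TAGLN (0.25, interval -0.08 to 0.58, adjusted p = 0.264). The interval for TAGLN reached values larger than any of the called differences. For FHL1 the fitted difference rests on fewer than 20 counts per group in SUM159PT, and for CORO2B none could be fitted.

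Under the control guide, the lines themselves expressed the contractile members at very different levels. This contrast compared the 2 sgNTS groups, which also serve as controls of the guide effects, and each line had its own count table, so line and table cannot be told apart. Of the 8 members 6 were called, beside 81.8% of all genes tested, so the count says nothing particular about them and the sizes are what is described. MYL9 was 13.4-fold and CNN3 7.97-fold lower in SUM159PT, and TAGLN was 3.07-fold lower. SRF (1.35-fold) and CNN2 (1.22-fold) were lower by less, and TPM1 was 1.93-fold higher in SUM159PT. ACTB and ACTG1 were not called, with log2 differences of -0.05 (interval -0.12 to 0.02) and -0.02 (interval -0.10 to 0.06). ACTB was called lower in SUM159PT with library totals (-0.07, adjusted p = 0.0318), with DESeq2 (-0.08, 0.035), with no filter on low counts (-0.09, 0.0412), and without library 2 of SUM159PT sgNTS (0.0358) or library 4 of MDA-MB-231 sgYES1 (0.047). ACTG1 was called lower without library 2 of SUM159PT sgNTS (-0.08, adjusted p = 0.0485).

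**Figure D3:**
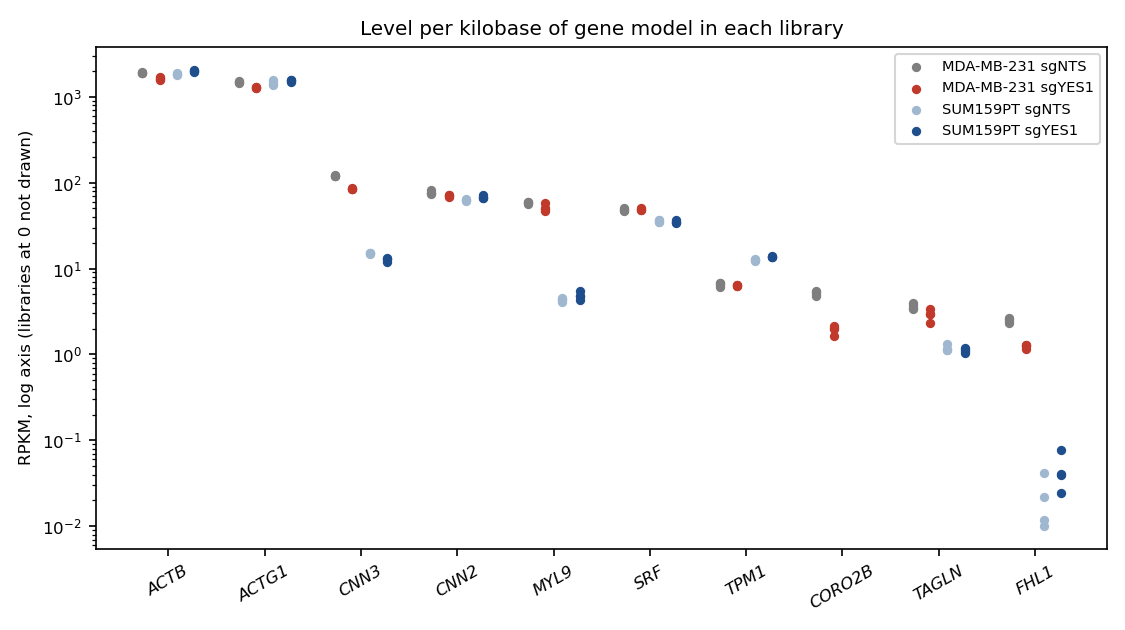
RPKM (reads scaled by gene-model length and library size) of each member in each library, on a log axis, ordered by the mean in MDA-MB-231 sgNTS; libraries at 0 are not drawn. Actins are near the same height in all 4 groups, while CNN3 and MYL9 drop by about an order of magnitude in SUM159PT, and CORO2B has no SUM159PT points.

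Between genes, levels can be set side by side only per length, here that of the gene model. This length was 12876 bases for TPM1, beside 2821 (MYL9) to 5997 (FHL1) for the other members. The rank of TPM1 therefore depends on it, and the length of the transcripts present was not tested. In CPM, TPM1 averaged 160 in SUM159PT sgNTS, above SRF (149) and CNN3 (42.2). In MDA-MB-231 sgNTS it averaged 85.4 CPM, below SRF (206) and CNN3 (345). In the sgNTS libraries of MDA-MB-231, ACTB led with 1894 ± 37.1 RPKM (SD, n = 4) and ACTG1 followed with 1483 ± 20.2. CNN3 came next at 120.1 ± 1.68 RPKM, then CNN2 at 76.5 ± 2.96, MYL9 at 58.3 ± 1.41 and SRF at 48.4 ± 1.46. TPM1 had 6.55 ± 0.368 RPKM, CORO2B 5.16 ± 0.263, TAGLN 3.63 ± 0.297 and FHL1 2.51 ± 0.158. Each neighbouring pair in this order was apart by more than the SDs of its members. In SUM159PT sgNTS the actins led again, with 1834 ± 55.5 RPKM for ACTB and 1462 ± 89.8 for ACTG1, followed by CNN2 at 62.7 ± 1.60 and SRF at 35.9 ± 1.05. CNN3 (15.1 ± 0.141 RPKM) and TPM1 (12.6 ± 0.347) came after them, then MYL9 (4.34 ± 0.225), TAGLN (1.18 ± 0.0883) and FHL1 (0.0213 ± 0.0143).

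Cofactors of SRF fell or were not called. Of 7 tested besides SRF, 4 were called lower in MDA-MB-231 and 3 were in SUM159PT, beside 22.1% and 19.7% of all genes tested. The count in MDA-MB-231 was 2 without sgYES1 library 3 and 3 with library totals or without any 1 of 5 other libraries. In SUM159PT it was 2 with DESeq2, with no filter on low counts or without any 1 of 5 libraries. None were higher in either line by edgeR, by DESeq2 or at an unadjusted p under 0.05. ELK3 fell in both lines (-0.22 and -0.25), as did ELK4 (-0.25 and -0.61), with a called difference between lines for ELK4 (-0.38, adjusted p = 0.0145, edgeR). The call of ELK4 in MDA-MB-231 was lost without sgYES1 library 3 (adjusted p = 0.057), and its difference without library 4 of MDA-MB-231 sgYES1 (0.0569), library 1 of SUM159PT sgNTS (0.0907), or library 2 (0.0669) or 3 (0.0611) of SUM159PT sgYES1. MRTFB had a called log2 fold change of -0.25 in the MDA-MB-231 fit (adjusted p = 0.0326, edgeR) and its value of -0.17 in SUM159PT was not called. The first of these was lost with library totals (adjusted p = 0.084) and without any 1 of 6 libraries, and the second was called without sgYES1 library 4 (0.0444). MRTFA (0.07 and 0.13) and ELK1 (-0.01 and 0.09) were called in neither line. SCAI, which represses MRTF activity, was called lower in SUM159PT (-0.27) and not in MDA-MB-231 (-0.15), and the difference between lines was not called (adjusted p = 0.476, edgeR). Its call in SUM159PT was lost with DESeq2 (0.0582), with no filter (0.0599) and without any 1 of 6 libraries. MYOCD, the cofactor of muscle, had no counts.

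Among other cytoskeletal targets of SRF, called falls outnumbered called rises in both lines. The lists share genes, such as FHL2 with the cofactors, TPM4 with the tropomyosins and FLNA with the crosslinkers. Their counts are therefore not separate observations. Without the members and among 17 tested genes, 7 were called lower and 3 higher in MDA-MB-231, with a median log2 fold change of -0.07. Beside these, 22.1% of all genes tested in that line were called lower and 20.8% higher, so the 3 rises are near the background. With library totals TPM4 lost its lower call in that line and MYH9 was called higher, so falls and rises lay closer in number. In SUM159PT 8 of 16 were called lower, beside 19.7% of all genes, with a median of -0.13. None was higher there with TMM, also at an unadjusted p under 0.05, beside 19.6% of all genes called higher. With library totals 6 were lower and 1 higher there. VCL, the adhesion protein vinculin, fell in MDA-MB-231 from 442 to 342 CPM (-0.37) and in SUM159PT from 162 to 148 CPM (-0.13). The call of VCL in SUM159PT was lost with library totals (adjusted p = 0.0539) and without sgNTS library 2 (0.0588) or sgYES1 library 2 (0.0537) or 3 (0.0535). CSRP1, a LIM protein of actin bundles, fell in MDA-MB-231 (-0.25) and was not called in SUM159PT (-0.08), except in the fit on 16 libraries (adjusted p = 0.0417) and without sgYES1 library 2 (0.0473). FLNA, a filamin, and MYH9, a non-muscle myosin heavy chain, were called lower in SUM159PT (-0.19 each) and not called in MDA-MB-231 (-0.03 and 0.07). MYH9 was called higher in MDA-MB-231 with library totals (0.12, adjusted p = 0.0341) and without sgNTS library 4 (0.11, 0.0285).

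**Figure D4:**
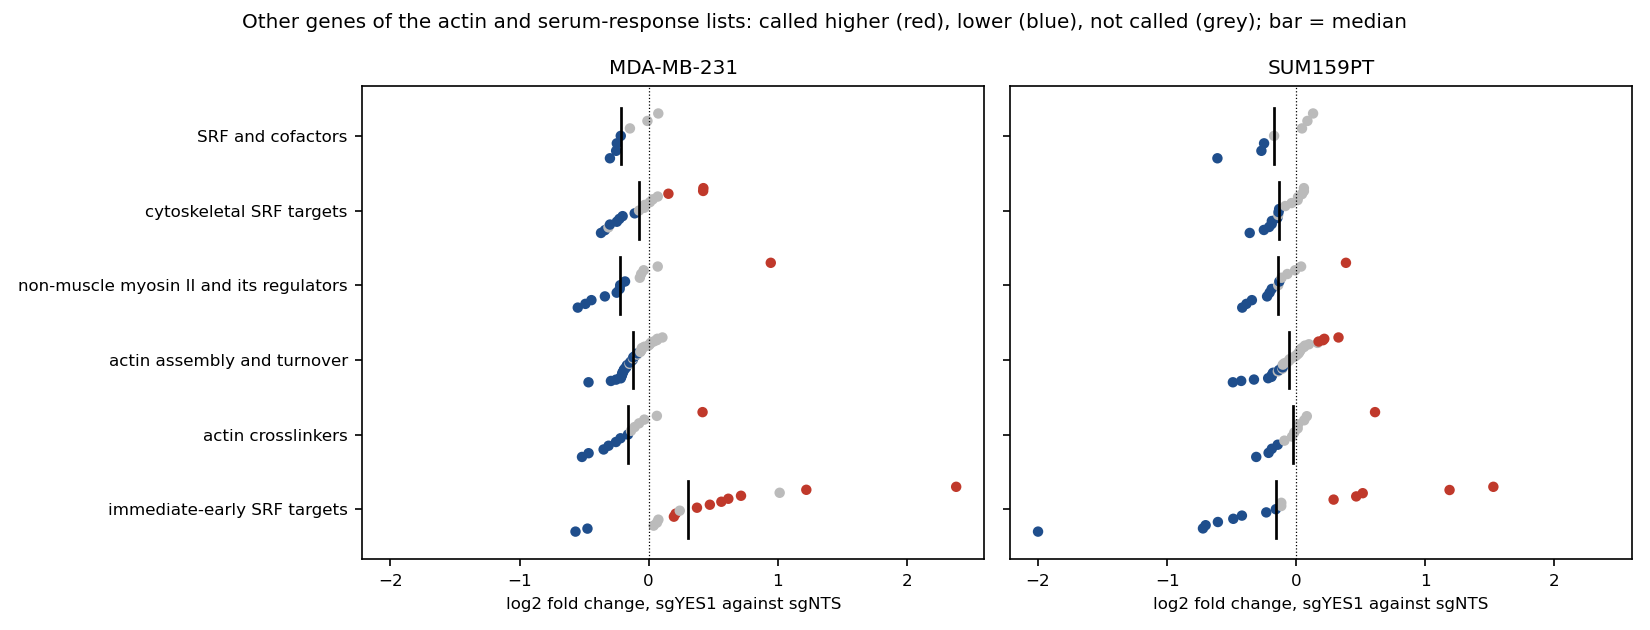
Log2 fold change of sgYES1 against sgNTS (horizontal axis) for the tested genes of 6 lists without the members, in MDA-MB-231 (left) and SUM159PT (right); blue points are called lower, red higher, grey not called, and the bar is the list's median. The median of the immediate-early genes is 0.31 at left and -0.16 at right, and the actin assembly list has 20 blue points at left and 11 at right.

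Immediate-early targets held many called rises in MDA-MB-231 and calls of both signs in SUM159PT. In MDA-MB-231, 9 of 16 were called higher and 2 lower, with a median of 0.31, while in SUM159PT 5 of 15 were called higher and 8 lower, with a median of -0.16. Shares over all genes tested were 20.8% higher and 22.1% lower in MDA-MB-231, and 19.6% and 19.7% in SUM159PT. FOSB, an AP-1 subunit, rose from 1.85 to 9.69 CPM in MDA-MB-231 (2.38) and from 4.86 to 11.02 CPM in SUM159PT (1.19). EGR1, a zinc-finger transcription factor, rose in MDA-MB-231 from 23.2 to 35.7 CPM and fell in SUM159PT from 103 ± 47.4 to 25.7 ± 2.94 CPM (SD, n = 4). The difference between lines for EGR1 was -2.63 on the log2 scale (adjusted p = 5.37e-07, edgeR). FOSL1 fell in both lines (-0.57 and -0.49), and CYR61, a matricellular gene, fell in SUM159PT (-0.61) with 0.06 in MDA-MB-231, not called there with TMM on all 8 libraries but called with library totals (0.11, adjusted p = 0.00824).

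Genes of non-muscle myosin II and its regulators work with the light chain that MYL9 encodes. Besides MYL9, 8 of 13 were called lower and 1 higher in MDA-MB-231, and 7 of 13 lower and 1 higher in SUM159PT. Among all genes, 22.1% were lower and 20.8% higher in MDA-MB-231, and 19.7% and 19.6% in SUM159PT. With MYL9 counted, 9 of 14 were lower and 1 higher in MDA-MB-231 with TMM, and 8 and 2 with library totals. MYL12A and MYL12B encode the other regulatory light chains of this myosin. MYL12A fell by 0.49 on the log2 scale in MDA-MB-231 and by 0.42 in SUM159PT, and MYL12B by 0.44 and by 0.13. The call of MYL12B in SUM159PT was lost without sgYES1 library 3 (adjusted p = 0.0505). Both lie on chromosome 18, as YES1 does, MYL12A at 3247481 to 3256236 and YES1 at 721588 to 812546 (hg38). A part of this position in their values was not tested. MYH10, a heavy chain, fell by 0.55 and by 0.39.

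Genes of actin assembly and turnover included many with small falls. In MDA-MB-231, 20 of 35 were called lower, beside 22.1% of all genes, with a median of -0.12. None was higher with TMM, by DESeq2 or at an unadjusted p under 0.05, beside 20.8% of all genes called higher. With library totals 14 were lower and 1 higher. In SUM159PT, 11 of 34 were called lower and 4 higher, beside 19.7% and 19.6% of all genes, with a median of -0.05. Without sgNTS library 4 or without sgYES1 library 3, 7 were lower there and 4 higher. DIAPH3, a formin that extends filaments, fell by 0.47 and by 0.43 on the log2 scale. CAPZA1, a capping protein subunit, and CFL2, a cofilin that severs filaments, were called lower in MDA-MB-231 (-0.19 and -0.25) and not called in SUM159PT (0.03 and -0.05). SSH1, a phosphatase that activates cofilin, fell in SUM159PT (-0.49) and was not called in MDA-MB-231 (-0.09; adjusted p = 0.0393 with no filter and 0.0274 without sgNTS library 1), a called difference (adjusted p = 0.00193, edgeR).

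Of 13 actin crosslinkers, 7 were called lower and 1 higher in MDA-MB-231, and 4 of 12 lower and 1 higher in SUM159PT. Among all genes, 22.1% were lower and 20.8% higher in MDA-MB-231, and 19.7% and 19.6% in SUM159PT. ACTN4, an alpha-actinin, fell from 1748 to 1373 CPM in MDA-MB-231 (-0.35) and had -0.03 in SUM159PT, a called difference (adjusted p = 9.09e-05, edgeR). FLNC, a filamin of muscle, fell from 1054 to 737 CPM in MDA-MB-231 and averaged 0.0635 CPM in the sgNTS libraries of SUM159PT. PLS1, a plastin, fell in both lines (-0.47 and -0.31).

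Markers of contractile and stromal cells were low in these lines. The 9 smooth-muscle and myofibroblast markers summed to 132 to 156 CPM in MDA-MB-231 sgNTS and 121 to 136 CPM in sgYES1, and to 33.7 to 39.3 and 43.6 to 49.2 CPM in SUM159PT. Most of each sum was SMTN, which averaged 139 CPM in MDA-MB-231 and 32.2 CPM in SUM159PT with sgNTS. MYH11, DES, CNN1, ACTG2 and LMOD1 were under 1 CPM on average in all 4 groups and MYOCD at 0. Sums of the other marker lists were small beside the actins but not beside every member. TAGLN averaged 14.4 CPM in MDA-MB-231 sgNTS and 4.57 CPM in SUM159PT sgNTS. Over all genes tested, 20.8% were called higher in MDA-MB-231 and 19.6% in SUM159PT. In MDA-MB-231 the marker sums moved with the guide. There the 8 leukocyte markers summed to 8.96 to 10.1 CPM with sgNTS and 11.7 to 13.3 CPM with sgYES1, and 3 of the 3 tested were called higher (2 with DESeq2 or without any 1 of 6 libraries). The 5 endothelial markers summed to 4.58 to 5.78 CPM with sgNTS and 7.68 to 10.2 CPM with sgYES1, with 2 of 2 called higher (1 without any 1 of 4 libraries). The 7 fibroblast markers summed to 26.5 to 31.3 CPM and 33.4 to 36.1 CPM, with 1 of 4 called higher. In that line 7 leukocyte, 3 endothelial and 4 fibroblast markers averaged under 1 CPM with sgNTS, and 5, 3 and 3 with sgYES1. A marker near this floor can pass the filter on low counts through the group where it is high. Counts of called markers in these lists are therefore a description and support nothing. In SUM159PT the leukocyte sum lay between 0.423 and 1.26 CPM with sgNTS and between 1.70 and 2.17 CPM with sgYES1. The endothelial sum (7.61 to 8.47, then 5.80 to 10.95 CPM) overlapped between guides there, as did the fibroblast sum (72.6 to 77.0, then 72.2 to 95.5 CPM, 3 of 5 called higher). CD3E was at 0. The part of these markers in the members' values was not tested.

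The genes most like SRF and CORO2B were ranked by the root-mean-square difference in log2 CPM across libraries after centring each line on its own mean. For SRF, over 16 libraries and 9514 protein-coding candidates, the nearest were PPFIA1 (0.0347), SRC (0.0385) and UPF1 (0.0401), against a median of 0.129 over candidates. SRF changed little with the guide, so genes that also changed little rank near it. In MDA-MB-231 and SUM159PT, log2 fold changes were 0.03 and 0.01 for PPFIA1, 0.03 and -0.02 for SRC, and -0.05 and -0.001 for UPF1. For CORO2B, over the 8 MDA-MB-231 libraries and 10510 candidates, they were YES1 (0.129), KISS1 (0.141) and LYPD6 (0.192), against a median of 0.698. CORO2B was selected on these same libraries and this contrast, so its list describes that selection and supports nothing. Both lists describe likeness across libraries that share a guide and a line.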

How the data were processed

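Poly-A RNA-seq of 2 cell lines and 2 guides was used. For each line the authors deposited a gene-level table of whole-number counts, not normalized. The submitters' processing notes name HISAT2 2.0.5, featureCounts 1.5.0-p3 and the hg38 build. The sources used here do not give strand and multi-mapping settings, so overlapping genes are uncertain. The labels' protocol names directional and non-directional libraries.

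From these counts, edgeR 4.0.16 in R 4.3.3 was run with TMM scaling, filterByExpr (minimum count 10, minimum total 15), glmQLFit and glmQLFTest, two-sided, with Benjamini-Hochberg adjustment over all genes tested. Fits used the 8 libraries of a line, or all 16 for the interaction and the sgNTS contrast. CPM are TMM-scaled within a line, and RPKM over 16 libraries with the tables' gene lengths. Depth was 14352042 to 25124164 counts per library. Lowest chi-square per degree of freedom between libraries of a group was 2.33, so none were copies. Library 4 of MDA-MB-231 sgNTS had values of 29.1, 19.6 and 9.38 against libraries 1 to 3. Log2 CPM used a prior count of 2. The code was tested on simulated data.

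Members and lists were chosen with earlier results of these data known. The genes named are the 10 members, YES1, the families of the members, up to 4 genes with the smallest p of each list in a described comparison (apart from 1 of the myosin list), the 3 genes nearest SRF and CORO2B among those of at least 5 CPM, and the markers. PCSK7 and DLGAP4-AS1 were added because they overlap TAGLN and MYL9. Alternatives were library totals, DESeq2 1.42.0, no filter, a replicate block, 1 mismatch in the motif's A/T core, a prior count of 0.5 and leaving out each library. The gene of the myosin list that was called higher is not reported here.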

Additional observations from a re-analysis of the deposited data

Results flagged for a closer look

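In 6 members the effect of the guide differed between the lines by the interaction test. On the log2 scale, SUM159PT minus MDA-MB-231, the difference was 0.3238 for ACTB, 0.2741 for ACTG1, 0.2429 for CNN2, 0.2577 for CNN3, 0.1642 for TPM1 and 0.3422 for MYL9. In 2 of 36 gene and group combinations checked, 1 library lay far from the other 3 of its group. CNN2 had a log2 CPM of 8.223 in library 1 of MDA-MB-231 sgNTS, where the next was 8.122. TAGLN had 2.389 in library 1 of SUM159PT sgNTS, where the next was 2.189. By chance about 1 in 20 groups would be picked out in this way.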

How the results depend on the processing

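Of 679 recomputed values none reversed a call. Of the 8 members, 6 were called in MDA-MB-231 (5 with library totals, 5 to 6 leaving out a library), 4 in SUM159PT (5 with library totals, 3 with no low-count filter, 3 to 5 leaving out a library), 6 for the difference between lines (5 with library totals and with no filter, 5 to 6 leaving out a library) and 6 between the sgNTS groups (7 with library totals, DESeq2 or no filter, 6 to 8 leaving out a library). Over all genes in MDA-MB-231, 3205 were called higher and 3402 lower with TMM, and 3956 and 2661 with library totals. Allowing 1 mismatch in the 6-base A/T core of the CArG box, with CC and GG kept, 8.13% of windows held a match. The members with a match were again 4 genes. For FHL1 the line values moved without single SUM159PT sgNTS libraries: the difference to 2.54 and the level contrast to -7.34 without library 4, and the latter to -6.51 without library 2. Replicate numbers did not pair the samples: the correlation of same-numbered deviations lay between -0.106 and 0.0431 (MDA-MB-231) and between -0.00637 and 0.0486 (SUM159PT). With the replicate block 6 members were called in MDA-MB-231, 4 in SUM159PT, 5 for the difference (TPM1 lost, adjusted p = 0.0705) and 6 between the sgNTS groups. Depth limits CORO2B and FHL1 in SUM159PT and, next to them, TAGLN.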
